A study of Homo sapiens with 8 samples.

Results

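Glycolysis and hypoxia genes were followed across ceritinib-resistant and parental lung adenocarcinoma cells. The set held 39 genes, taken by name from a list of glycolytic enzymes, their regulators, subunits and regulators of the hypoxia-inducible factors (HIF) and genes known to respond to low oxygen. Of these, 38 had a probe set read as 1 gene, out of 18132 genes in all, and each gene was represented by its brightest probe set. CA9 had no such probe set and was not analysed here. CA12 and ADM were too dim to test, with signals of 4.82 to 5.42 and 4.67 to 5.06, which left 36 genes tested.

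RNA was measured on 8 single-colour arrays from H3122-LR3, H3122-LR2 and parental H3122 cells. H3122 is an adenocarcinoma line that carries the EML4-ALK fusion kinase, and LR2 and LR3 are derivatives labelled as resistant to ceritinib. LR3 cells were measured with ceritinib and untreated, and LR2 and parental cells with ceritinib, with crizotinib and untreated. Both agents inhibit the ALK kinase, and each was given at 1000 nM for 6 h in RPMI medium with 10% FBS. Each condition had 1 array, so line differences were read across agents over 2 LR3, 3 LR2 and 3 parental arrays. How LR2 and LR3 were selected, whether each is 1 clone, and the drug in their routine culture are not given in the sources used here. Within a line the values below run ceritinib, crizotinib, untreated. All values are log2 signals of RMA, and differences are log2 differences.

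Glycolysis converts glucose to pyruvate. Hexokinases trap glucose in the cell, phosphofructokinase commits it to the pathway, and lactate dehydrogenase turns pyruvate into lactate. The kinases of pyruvate dehydrogenase inactivate that enzyme complex. In the presence of oxygen, prolyl hydroxylases of the EGLN family mark HIF alpha subunits for the VHL ubiquitin ligase, which has them degraded. In low oxygen the HIF subunits persist and bind promoters of glycolytic, angiogenic and collagen-modifying genes. HIF activity is set largely at the protein level, which these arrays do not measure.

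The epithelial character of the cells was checked first. All 11 lung adenocarcinoma and epithelial markers measured lay above the floor of 5.36 on every array, with summed signals of 113.25 to 114.73. None of 8 fibroblast markers exceeded it, 1 of 7 leukocyte markers did (CD68), and 3 of 6 endothelial markers did (CDH5, KDR and VWF). Summed fibroblast signals were 28.55 to 28.91 in LR3, 28.3 to 29.46 in LR2 and 28.07 to 28.89 in parental cells. Array medians were 5.31 to 5.36, apart from 5.46 on the LR2 ceritinib array. In bulk RNA, fewer expressing cells and less RNA per cell cannot be told apart.

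Promoters of 8 genes named in the results below are shown as examples, to place the HIF-binding core in them. Of the 39 genes, 34 had a window, and VEGFA and VHL were among those without. The core is ACGTG or GCGTG on either strand, in capitals here, and it overlaps the palindrome CACGTG, the E-box of MYC and its relatives. Such a palindrome was counted as 1 core. Each sequence is the 250 bases before an annotated start in RefSeq (GRCh38.p14), and for genes with 2 starts 1 window is shown. The first 4 lines are genes with large single-array differences after inhibitor, the next pair are glycolytic genes that differed in LR3, and the last pair were lowest in LR2.
HK2, chr2:74834920-74835169, plus strand: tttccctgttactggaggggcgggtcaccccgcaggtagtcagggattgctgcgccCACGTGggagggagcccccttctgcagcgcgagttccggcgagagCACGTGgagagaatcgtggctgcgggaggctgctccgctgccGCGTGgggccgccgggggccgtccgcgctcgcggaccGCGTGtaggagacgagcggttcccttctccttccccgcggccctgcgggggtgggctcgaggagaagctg
PFKFB3, chr10:6202682-6202931, plus strand: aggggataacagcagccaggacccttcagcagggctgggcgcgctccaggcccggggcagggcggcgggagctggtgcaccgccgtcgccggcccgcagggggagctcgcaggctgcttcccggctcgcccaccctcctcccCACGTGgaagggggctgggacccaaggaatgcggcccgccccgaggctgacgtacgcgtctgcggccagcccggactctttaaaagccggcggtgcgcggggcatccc
EGLN3, chr14:33951075-33951324, minus strand: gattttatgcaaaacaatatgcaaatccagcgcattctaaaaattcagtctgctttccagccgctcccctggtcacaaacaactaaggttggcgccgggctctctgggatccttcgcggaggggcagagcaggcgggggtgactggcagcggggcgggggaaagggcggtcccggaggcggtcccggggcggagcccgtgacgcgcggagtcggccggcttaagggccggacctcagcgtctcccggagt
KDM3A, chr2:86441121-86441370, plus strand: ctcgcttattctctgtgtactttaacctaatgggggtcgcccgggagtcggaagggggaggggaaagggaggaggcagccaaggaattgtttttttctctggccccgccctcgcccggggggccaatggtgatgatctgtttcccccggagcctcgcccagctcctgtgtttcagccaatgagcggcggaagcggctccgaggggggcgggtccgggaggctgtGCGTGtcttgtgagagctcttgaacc
ALDOC, chr17:28576896-28577145, minus strand: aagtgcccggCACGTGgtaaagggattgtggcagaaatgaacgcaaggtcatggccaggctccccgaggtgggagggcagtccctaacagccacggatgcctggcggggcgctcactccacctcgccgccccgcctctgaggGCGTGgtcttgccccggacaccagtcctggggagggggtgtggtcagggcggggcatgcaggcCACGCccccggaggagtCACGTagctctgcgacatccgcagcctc
LDHA, chr11:18394313-18394562, plus strand: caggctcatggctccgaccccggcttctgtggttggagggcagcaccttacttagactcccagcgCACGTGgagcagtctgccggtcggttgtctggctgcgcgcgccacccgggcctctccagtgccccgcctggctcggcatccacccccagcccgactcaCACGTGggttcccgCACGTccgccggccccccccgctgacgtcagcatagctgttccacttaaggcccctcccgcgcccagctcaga
P4HA1, chr10:73096867-73097116, minus strand: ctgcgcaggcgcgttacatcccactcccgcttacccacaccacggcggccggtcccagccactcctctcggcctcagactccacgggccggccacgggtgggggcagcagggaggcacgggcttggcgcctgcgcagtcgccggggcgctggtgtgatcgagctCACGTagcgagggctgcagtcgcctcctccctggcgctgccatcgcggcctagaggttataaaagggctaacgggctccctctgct
ERO1A, chr14:52695559-52695808, minus strand: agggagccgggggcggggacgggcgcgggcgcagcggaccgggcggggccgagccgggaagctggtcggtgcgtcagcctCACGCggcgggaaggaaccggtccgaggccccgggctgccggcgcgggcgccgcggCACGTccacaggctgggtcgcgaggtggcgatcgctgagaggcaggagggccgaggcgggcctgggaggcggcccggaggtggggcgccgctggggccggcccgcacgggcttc
The HK2 window held 4 cores, that of ALDOC 4, LDHA 3, ERO1A 2, PFKFB3 1, KDM3A 1 and P4HA1 1, whereas these letters were not in the EGLN3 window. The other HK2 window held 3 cores and the other LDHA window 1. The P4HA2 window and most PFKM windows, which are not shown, held none. Cores were found in 37 of 58 windows of the gene set (63.8%), against 43.2% of all 35116 windows of this length in the table. CACGTG was present in 6.34% of all windows. A match is a description of letters in a window and not of binding.

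Line differences were estimated with limma from a model with line and agent as additive terms. A gene counted as called when its p, adjusted by Benjamini and Hochberg's method across 10527 genes, was under 0.05, and ± is the standard error. LR3 against parental cells called 11 of the 36 genes (30.6%), 8 higher and 3 lower. The background in that comparison was 21.6% of all genes, 9.56% higher and 12.1% lower. LR2 against parental cells called 8 of the 36 (22.2%), 3 higher and 5 lower, beside a background of 22.5%, 12.8% higher and 9.69% lower. The LR2 share therefore lay at the background. The median difference of the 36 genes was 0.15 in LR3, against 0.01 over all genes, and it was -0.02 in LR2, against 0.02 over all genes. Both comparisons share the parental arrays.

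LR3 against LR2 called 12 of the 36 genes, 10 higher and 2 lower, beside a background of 19.6%, 7.29% higher and 12.3% lower. Higher in LR3 than in LR2 were 4 glycolytic genes, 5 hypoxia-responsive genes and EGLN3. Lower were VHL and LDHA. Of 32 hypoxia-responsive genes tested outside the set, 1 was higher and 5 lower in LR3 than in LR2. In these line tests the spread is how far single arrays depart from the additive line and agent terms. A response to agent that differs by line widens it. The p-values carry nothing on separately grown cultures.

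**Figure D1:**
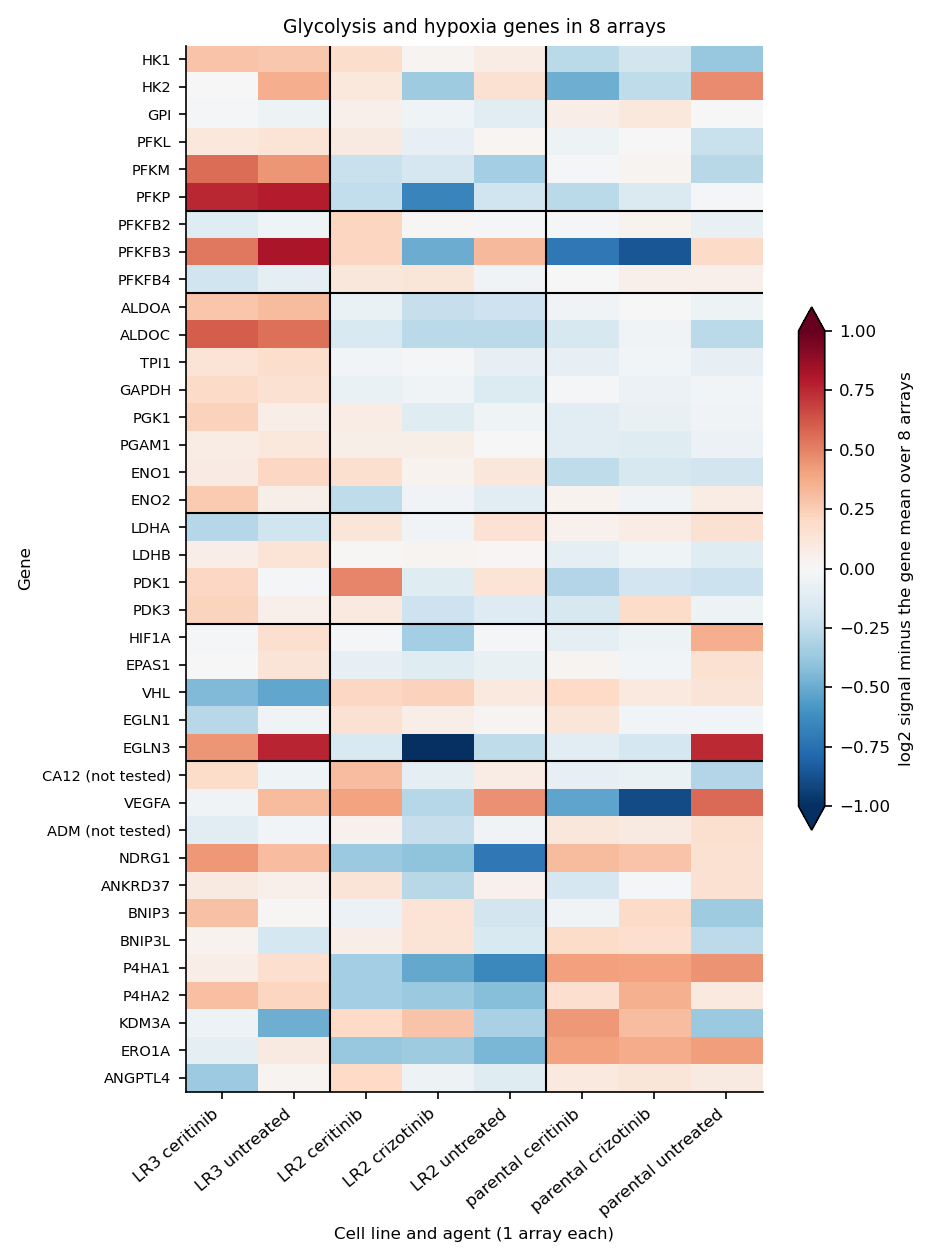
Log2 signal of each gene minus its mean over the 8 arrays (colour scale, clipped at 1 in either direction), for 38 genes in rows by role and 8 arrays in columns. PFKM, PFKP and ALDOC are highest on both LR3 arrays, P4HA1, P4HA2 and NDRG1 are lowest on the 3 LR2 arrays, and VEGFA, PFKFB3 and HK2 are lower on both treated parental arrays than on the untreated one.

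Of the 6 genes of glucose phosphorylation and phosphofructokinase, HK1, PFKM and PFKP were called higher in LR3 and 3 were not called, beside 9.56% of all genes called higher. In LR2 HK1 was called higher, beside 12.8% of all genes, and 5 were not called. HK1, the constitutive hexokinase, had signals of 10.01 and 9.99 in LR3, 9.90, 9.75 and 9.80 in LR2, and 9.45, 9.54 and 9.34 in parental cells. Every LR3 array exceeded every LR2 array, and every LR2 array exceeded every parental one. HK1 was higher by 0.56 ± 0.09 in LR3 (adjusted p = 0.00495) and by 0.37 ± 0.08 in LR2 (adjusted p = 0.0123) than in parental cells, and all 4 of its probe sets had that sign in both lines. The LR2 call was lost without the LR2 ceritinib, the LR2 untreated or the parental untreated array (difference 0.33 to 0.35, adjusted p up to 0.0641), and the LR3 call without the LR3 untreated array (adjusted p = 0.0578).

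Phosphofructokinase subunits separated LR3 from both other lines. PFKP, the platelet-type subunit, had signals of 8.80 and 8.83 in LR3, 7.80, 7.39 and 7.85 in LR2, and 7.78, 7.90 and 8.03 in parental cells. The LR3 arrays lay clear above all others, and the LR2 and parental ranges overlapped. The difference was 0.84 ± 0.12 or 1.79-fold from parental cells (adjusted p = 0.00317) and 1.06 ± 0.12 or 2.09-fold from LR2 (adjusted p = 0.00115). PFKM, the muscle-type subunit, had 7.73 and 7.61 in LR3, 6.95, 7.0 and 6.83 in LR2, and 7.15, 7.2 and 6.89 in parental cells. It too was above every other array in LR3, by 0.64 ± 0.08 over parental cells (adjusted p = 0.00194) and 0.79 ± 0.08 over LR2 (adjusted p = 0.000768). These calls held in every alternative that could test them. The liver-type subunit PFKL was not called, at 0.21 ± 0.10 in LR3 (adjusted p = 0.163) and 0.10 ± 0.08 in LR2 (adjusted p = 0.457). Nor was GPI, which isomerises glucose phosphate, called in either line, at -0.08 in LR3 and -0.09 in LR2.

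PFKFB3, which makes the fructose bisphosphate that activates phosphofructokinase, was called higher in both resistant lines. Its signals were 9.68 and 9.97 in LR3, 9.37, 8.66 and 9.48 in LR2, and 8.44, 8.30 and 9.35 in parental cells. Both LR3 arrays exceeded all others, and the LR2 and parental ranges overlapped. The difference was 0.90 ± 0.16 or 1.87-fold in LR3 (adjusted p = 0.00832) and 0.47 ± 0.14 in LR2 (adjusted p = 0.0451). Its size varied with the agent. Single LR2 arrays exceeded the matched parental array by 0.93 with ceritinib, 0.36 with crizotinib and 0.13 untreated. For LR3 the values were 1.24 with ceritinib and 0.62 untreated. All 4 PFKFB3 probe sets were higher in both lines. The LR2 call was lost in 11 of 15 alternatives, among them every omission of 1 array except the parental untreated one (adjusted p up to 0.186), and without the agent term (adjusted p = 0.341). The LR3 call was lost in 2, at 0.79 (adjusted p = 0.09) without the LR3 ceritinib array and at 1.13 (adjusted p = 0.0539) without the agent term. PFKFB2 and PFKFB4, of the same enzyme family, were not called, with differences of -0.06 and -0.16 in LR3 and of 0.09 and 0.03 in LR2. The fainter PFKFB2 probe sets, most of them under the floor on every array, disagreed with the brightest. They were higher in LR3 than in parental cells, by 0.14 to 0.32, and lower in treated parental cells, by -0.63 to -0.19.

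HK2, the inducible hexokinase, was not called between lines. Its signals were 7.48 and 7.85 in LR3, 7.59, 7.13 and 7.64 in LR2, and 7.0, 7.23 and 7.96 in parental cells, and the ranges of the lines overlapped. The differences were 0.15 ± 0.18 in LR3 (adjusted p = 0.604) and 0.06 ± 0.15 in LR2 (adjusted p = 0.828).

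Of the 8 enzymes from aldolase to enolase, ALDOC, ENO1 and ALDOA were called higher in LR3 and 5 were not called. The share of all genes called higher in LR3 was 9.56%. The 8 fitted differences were 0.14 to 0.75 with a median of 0.22. In LR2 ENO1 was called higher, beside 12.8% of all genes, 7 were not called, and the median was -0.01. ALDOC, the brain-type aldolase, had 9.08 and 9.02 in LR3, 8.32, 8.20 and 8.20 in LR2, and 8.31, 8.44 and 8.20 in parental cells. The LR3 arrays stood apart, by 0.75 ± 0.09 or 1.69-fold from parental cells (adjusted p = 0.00145) and by 0.83 ± 0.09 from LR2 (adjusted p = 0.000962). All 5 ALDOC probe sets were higher in LR3, by 0.53 to 0.86 over parental cells.

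ALDOA, the ubiquitous aldolase, had 12.89 and 12.93 in LR3, 12.55, 12.38 and 12.41 in LR2, and 12.58, 12.61 and 12.56 in parental cells. It was higher in LR3 by 0.32 ± 0.09 (adjusted p = 0.0348), a call lost with no filter and on omission of any 1 array except the LR2 ceritinib one (0.26 without the LR3 untreated array, adjusted p = 0.237). ENO1, the main enolase of epithelia, had 12.91 and 13.03 in LR3, 12.99, 12.86 and 12.94 in LR2, and 12.57, 12.67 and 12.64 in parental cells. Both resistant lines lay above every parental array, by 0.34 ± 0.09 in LR3 (adjusted p = 0.0302) and 0.30 ± 0.07 in LR2 (adjusted p = 0.0233). Each call was lost in 6 alternatives, with adjusted p up to 0.211 in LR3, without the LR3 untreated array, and up to 0.0963 in LR2, without the LR2 ceritinib array. GAPDH had 14.22 and 14.18 in LR3 and 13.89 to 14.01 on the other arrays. Its difference of 0.21 ± 0.08 in LR3 was not called (adjusted p = 0.0917). The 3 control probe sets for GAPDH on the same arrays read 14.04 to 14.19 in LR3 and 13.81 to 13.96 elsewhere. TPI1, PGK1, PGAM1 and ENO2 differed by 0.14 to 0.24 in LR3 and by -0.16 to 0.14 in LR2, with no call.

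LDHA went the other way in LR3. This subunit of lactate dehydrogenase, which favours lactate formation, had 12.79 and 12.88 in LR3, 13.20, 13.04 and 13.22 in LR2, and 13.12, 13.15 and 13.23 in parental cells. Both LR3 arrays lay under every other array, by 0.36 on average against parental cells (-0.36 ± 0.08, adjusted p = 0.0183) and by 0.35 against LR2 (-0.35 ± 0.08, adjusted p = 0.0211). All 4 LDHA probe sets were lower in LR3, by -0.51 to -0.34. The call against parental cells was lost without either LR3 array or the parental untreated array (-0.38 to -0.35, adjusted p up to 0.126). LDHB, which favours pyruvate formation, was not called, at 0.21 ± 0.08 in LR3 (adjusted p = 0.0952) and 0.10 ± 0.07 in LR2.

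Of the kinases that inactivate pyruvate dehydrogenase, PDK1 had 5.77 and 5.55 in LR3, 6.05, 5.44 and 5.70 in LR2, and 5.27, 5.37 and 5.35 in parental cells. Every array of the resistant lines exceeded every parental array, but several values lay near the floor of 5.36. The differences of 0.27 ± 0.14 in LR3 (adjusted p = 0.223) and 0.40 ± 0.12 in LR2 (adjusted p = 0.0505) missed the threshold. PDK3 was not called either, at 0.16 in LR3 and -0.07 in LR2.

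**Figure D2:**
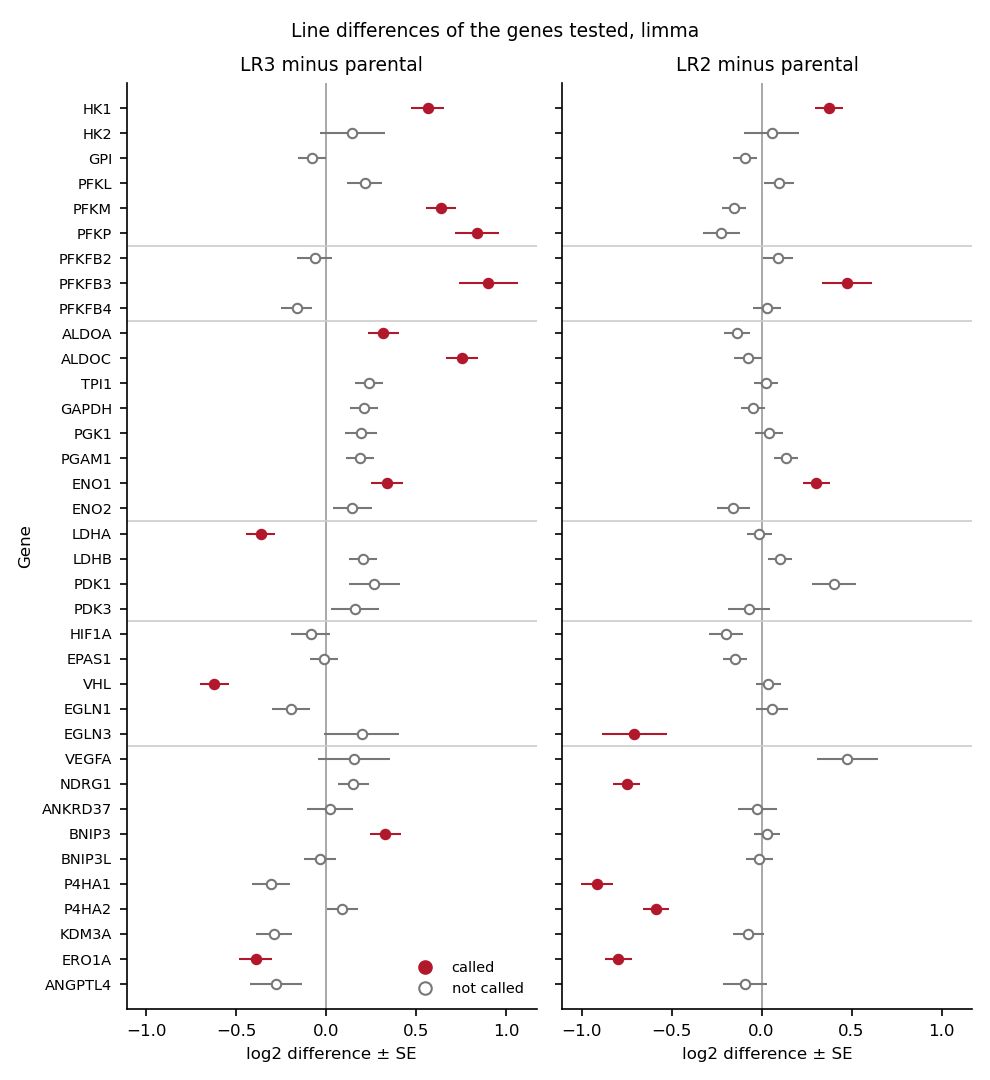
Log2 differences from parental cells with standard errors of limma for the 36 genes tested, LR3 in the left panel and LR2 in the right; filled points were called at an adjusted p under 0.05. In LR3 the 8 genes called higher are PFKFB3, PFKP, ALDOC, PFKM, HK1, ENO1, BNIP3 and ALDOA, and the 3 called lower are VHL, ERO1A and LDHA; in LR2 PFKFB3, HK1 and ENO1 are called higher and P4HA1, ERO1A, NDRG1, EGLN3 and P4HA2 lower.

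The RNA of the HIF alpha subunits was not called in either line. HIF1A had 10.80 and 10.98 in LR3, 10.80, 10.48 and 10.80 in LR2, and 10.73, 10.77 and 11.18 in parental cells, with overlapping ranges. It differed by -0.09 ± 0.11 in LR3 (adjusted p = 0.614) and by -0.20 ± 0.09 in LR2 (adjusted p = 0.167). EPAS1, the HIF subunit prominent in endothelium and lung, had 10.65 and 10.77 in LR3, 10.52 to 10.57 in LR2 and 10.62 to 10.80 in parental cells. It differed by -0.01 ± 0.08 in LR3 and -0.15 ± 0.07 in LR2 (adjusted p = 0.928 and 0.161).

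VHL, which directs HIF subunits to degradation, was lower in LR3. Its signals were 7.39 and 7.31 in LR3, 8.04, 8.06 and 7.93 in LR2, and 8.03, 7.93 and 7.96 in parental cells. The LR3 arrays lay clear below the rest, and those of the other lines overlapped. The difference was -0.62 ± 0.08 or 1.54-fold from parental cells (adjusted p = 0.0021) and -0.66 ± 0.08 from LR2 (adjusted p = 0.00154). Both VHL probe sets were lower in LR3, and the calls held in every alternative that could test them. In LR2 VHL differed from parental cells by 0.04 ± 0.07 (adjusted p = 0.746).

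Of the prolyl hydroxylases, EGLN3, itself a HIF target, was lower in LR2. It had 6.79 and 7.11 in LR3, 6.19, 5.09 and 6.09 in LR2, and 6.23, 6.17 and 7.09 in parental cells. The LR2 and parental ranges overlapped by a small margin, with the untreated parental array far above the treated ones. LR2 differed by -0.71 ± 0.18 from parental cells (adjusted p = 0.0259) and LR3 by 0.90 ± 0.21 from LR2 (adjusted p = 0.0208). The LR2 call was lost in 6 of 15 alternatives, including without either crizotinib array (-0.52, adjusted p = 0.168) or without the parental or LR2 untreated array (-0.58 and -0.60), and the call between LR3 and LR2 was lost in 7 (adjusted p up to 0.144). EGLN1, the main oxygen sensor of this family, was not called, at -0.20 ± 0.11 in LR3 and 0.06 ± 0.09 in LR2.

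Of 10 hypoxia-responsive genes tested, P4HA1, ERO1A, NDRG1 and P4HA2 were called lower in LR2, beside 9.69% of all genes, and 6 were not called, with differences of -0.09 to 0.48. In LR3 BNIP3 was called higher, ERO1A lower, and 8 were not called, beside 9.56% of all genes higher and 12.1% lower. P4HA1, which hydroxylates collagen prolines, had 7.25 and 7.35 in LR3, 6.84, 6.67 and 6.54 in LR2, and 7.59, 7.58 and 7.63 in parental cells. The 3 lines did not overlap. P4HA1 fell in LR2 by 0.92 (-0.92 ± 0.09) or 1.89-fold (adjusted p = 0.000534), and the LR3 value of -0.31 ± 0.10 was not called (adjusted p = 0.0714). P4HA2, the second such subunit, had 8.13 and 8.05 in LR3, 7.49, 7.46 and 7.41 in LR2, and 8.0, 8.19 and 7.93 in parental cells. It fell in LR2 (-0.59 ± 0.07, adjusted p = 0.00154), and in LR3 its value was 0.09 ± 0.09 (adjusted p = 0.504).

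ERO1A, the endoplasmic reticulum oxidase that drives disulfide formation, fell in both resistant lines. It had 8.62 and 8.80 in LR3, 8.33, 8.35 and 8.25 in LR2, and 9.11, 9.08 and 9.13 in parental cells, again without overlap. The difference was -0.39 ± 0.09 in LR3 (adjusted p = 0.0189) and -0.80 ± 0.08 or 1.74-fold in LR2 (adjusted p = 0.000497), and LR3 exceeded LR2 by 0.40 ± 0.09 (adjusted p = 0.0172). Both ERO1A probe sets had these signs. The LR3 call was lost in 4 of 16 alternatives, among them without the LR3 ceritinib array (-0.29, adjusted p = 0.183), the parental untreated or the parental ceritinib array.

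NDRG1, a stress- and hypoxia-induced gene of differentiating epithelia, had 9.89 and 9.76 in LR3, 9.08, 9.05 and 8.74 in LR2, and 9.77, 9.74 and 9.61 in parental cells. All LR2 arrays lay under all others. It fell in LR2 (-0.75 ± 0.07 or 1.68-fold, adjusted p = 0.00055), with all 6 probe sets lower, and was 0.15 ± 0.09 in LR3 (adjusted p = 0.253). LR3 exceeded LR2 by 0.90 ± 0.09 (adjusted p = 0.000597). The LR2 falls of NDRG1, P4HA1, P4HA2 and ERO1A held in every alternative that could test them.

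VEGFA, the main angiogenic factor of the HIF response, was not called between lines. It had 9.75 and 10.10 in LR3, 10.19, 9.50 and 10.24 in LR2, and 9.26, 8.89 and 10.35 in parental cells. The untreated arrays of the 3 lines lay within 10.10 to 10.35, and the treated parental arrays were the lowest of all 8. The differences were 0.15 ± 0.20 in LR3 (adjusted p = 0.626) and 0.48 ± 0.17 in LR2 (adjusted p = 0.0812). BNIP3, which acts in mitophagy, was higher in LR3 by 0.33 ± 0.09 (adjusted p = 0.0319), a call lost in 9 of 15 alternatives (0.22, adjusted p = 0.406 without the agent term; 0.27, adjusted p = 0.159 without the parental untreated array), and its values overlapped between lines at 8.16 and 7.88 in LR3, 7.81, 8.0 and 7.68 in LR2, and 7.83, 8.06 and 7.51 in parental cells. ANKRD37, BNIP3L, KDM3A and ANGPTL4 differed by -0.29 to 0.02 in LR3 and by -0.09 to -0.01 in LR2, with no call.

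Inhibitor responses were tested per line with crizotinib and ceritinib as 1 condition. The spread in these tests was that between the inhibitors within LR2 and within parental cells. LR3, with 1 inhibitor array, was assumed to vary like the others. In limma 0 of all 10527 genes (0%) were called in LR3, in LR2 or in parental cells, with 499, 1015 and 1849 genes at an unadjusted p under 0.05. Of the 36 genes, 2 in LR3, 3 in LR2 and 8 in parental cells had such a p. Single-array differences are therefore given as values. Genes at least 0.5 lower or higher than on the untreated array of their line are counted below, a size chosen after the values were seen.

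VEGFA, PFKFB3, HK2 and EGLN3 were the genes at least 0.5 lower on both treated parental arrays, 4 of 36, beside 2.93% of all genes, and KDM3A was the 1 at least 0.5 higher, beside 3.52%. Per array the background was 4% lower and 4.41% higher with ceritinib, and 3.7% lower and 5.12% higher with crizotinib. On the LR2 crizotinib array the same 4 genes were lower, beside 3.39%, and KDM3A higher, beside 3.55%. On the LR2 ceritinib array none was lower (0.209% of all genes) and KDM3A was higher (1.86%). On the LR3 ceritinib array none was lower or higher (0.446% and 0.94%).

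The VEGFA difference from the untreated array was -0.35 in LR3 with ceritinib, -0.05 in LR2 with ceritinib, -0.74 in LR2 with crizotinib, -1.09 in parental cells with ceritinib and -1.46 in parental cells with crizotinib. All 10 VEGFA probe sets were lower in treated than in untreated parental cells, by -1.6 to -0.23. In the limma model the parental response was -1.27 ± 0.31 or 2.42-fold (adjusted p = 0.161, unadjusted p = 0.00729). The response differed from the parental one by 0.93 ± 0.47 in LR3 (adjusted p = 0.911) and 0.88 ± 0.43 in LR2 (adjusted p = 0.998). The difference between the lines in the VEGFA response thus missed the threshold.

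PFKFB3 had the same order, with -0.29 in LR3 with ceritinib, -0.11 in LR2 with ceritinib, -0.82 in LR2 with crizotinib, -0.91 in parental cells with ceritinib and -1.05 in parental cells with crizotinib. Its parental response was -0.98 ± 0.28 (adjusted p = 0.196), with all 4 probe sets lower. HK2 had -0.37, -0.05, -0.51, -0.96 and -0.73 in these conditions, and a parental response of -0.84 ± 0.21 (adjusted p = 0.164). The fainter HK2 probe set gave -0.07. EGLN3 had -0.32 in LR3 with ceritinib, 0.10 in LR2 with ceritinib, -1.0 in LR2 with crizotinib, -0.86 in parental cells with ceritinib and -0.92 in parental cells with crizotinib. HIF1A had -0.18, 0.00, -0.32, -0.45 and -0.41 in the same order, and all 8 of its probe sets were lower in treated parental cells, by -0.70 to -0.43. The limma differences of these responses from the parental one were 0.25 to 0.69 in LR3 and 0.27 to 0.57 in LR2, none called.

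KDM3A, a histone demethylase and HIF target, was higher on every treated array. Its signals were 7.92 with ceritinib and 7.48 untreated in LR3. In LR2 they were 8.17 with ceritinib, 8.25 with crizotinib and 7.64 untreated, and in parental cells 8.4, 8.28 and 7.60 in that order. The differences were thus 0.44 in LR3, 0.53 and 0.61 in LR2, and 0.80 and 0.68 in parental cells, and treated and untreated arrays did not overlap across lines. BNIP3L, a mitophagy receptor, was also higher on all treated arrays, by 0.21 in LR3, 0.22 and 0.29 in LR2, and 0.45 and 0.43 in parental cells. BNIP3 was higher by 0.28 in LR3, 0.13 and 0.32 in LR2, and 0.32 and 0.55 in parental cells.

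A model of line plus inhibitor over all 8 arrays, added after the values were seen, called 345 genes (3.28%), 3.02% higher and 0.256% lower with inhibitor. That background was itself unstable. With quantile normalization, with centring of each array, or without any 1 parental array, the LR2 crizotinib or the LR2 untreated array, 0 genes were called, with 1186 to 2730 at an unadjusted p under 0.05. Without the LR2 ceritinib array 594 genes were called higher and 436 lower. Of the 36 genes it called 2, both higher. KDM3A rose by 0.60 ± 0.07 or 1.51-fold (adjusted p = 0.0254) and BNIP3L by 0.31 ± 0.06 (adjusted p = 0.0475), with adjusted p over the alternatives of up to 0.254 and 0.341. VEGFA (-0.70 ± 0.22, adjusted p = 0.101), PFKFB3 (-0.60 ± 0.18, adjusted p = 0.0922), HK2 (-0.51 ± 0.14, adjusted p = 0.0821), EGLN3 (-0.57 ± 0.23, adjusted p = 0.164) and HIF1A (-0.26 ± 0.09, adjusted p = 0.126) were not called. These values moved in both directions over the alternatives, from -0.88 to -0.38 for VEGFA and from -0.35 to -0.17 for HIF1A. Without the LR2 ceritinib array 8 of the 36 genes were called, beside 9.78% of all genes. HK2, PFKFB3, VEGFA, EGLN3 and HIF1A were then lower and KDM3A, BNIP3 and BNIP3L higher. That array also had the highest median of the 8, and its median difference from untreated LR2 cells was 0.10 over all genes. The part of this offset in the result was not tested.

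**Figure D3:**
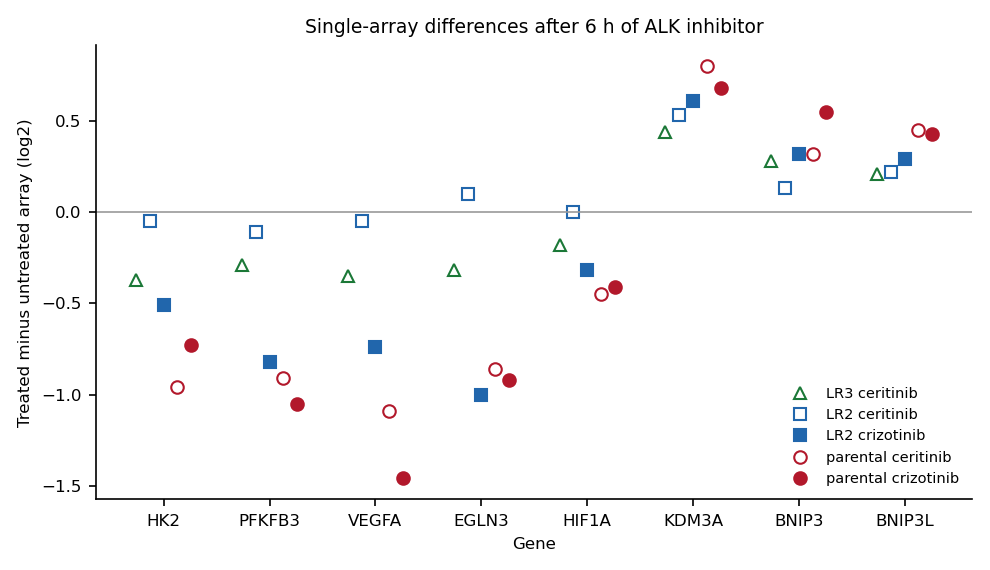
Log2 difference between each treated array and the untreated array of its line (vertical axis) for 8 genes, with 1 point per treated array and no error bars since each condition had 1 array. HK2, PFKFB3, VEGFA and EGLN3 lie at -0.51 or lower on both parental arrays and the LR2 crizotinib array, between -0.37 and 0.10 on the other 2 arrays, and KDM3A lies at 0.44 or higher on all 5.

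Ceritinib and crizotinib were compared in LR2 and parental cells at the same dose and time. The additive model called 0 of 10527 genes (0%), with 638 at an unadjusted p under 0.05 and a smallest adjusted p of 0.655. Ceritinib minus crizotinib was 0.59 ± 0.21 for EGLN3, 0.57 ± 0.20 for VEGFA and 0.46 ± 0.16 for PFKFB3, each with an adjusted p of 0.77. The lines differed in this respect on single arrays. In LR2 the ceritinib array exceeded the crizotinib array by 1.10 for EGLN3, 0.71 for PFKFB3, 0.69 for VEGFA, 0.61 for PDK1 and 0.46 for HK2. In parental cells these differences were 0.06, 0.14, 0.37, -0.10 and -0.23 in the same order. Each is a difference of 2 arrays with no test, and the LR2 crizotinib signal of EGLN3 lay under the floor. Without the parental ceritinib array the model called EGLN3 (0.93), VEGFA (0.83) and PFKFB3 (0.73), beside 3.81% of all genes. The spread between replicate arrays of 1 condition, which would be needed to compare the agents within a line, was not measured.

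Genes outside the set that feed or regulate glycolysis and HIF were read from 8 further lists. SLC2A3 was read only by probe sets of several genes, PDK4 was too dim to test, and SLC16A1 and SLC16A3 were not analysed here. SLC2A1, the glucose transporter induced by HIF, had 9.79 and 10.09 in LR3, 9.12, 8.85 and 9.20 in LR2, and 9.52, 9.64 and 9.96 in parental cells. All LR2 arrays lay under all others. SLC2A1 fell in LR2 (-0.65 ± 0.09, adjusted p = 0.00239), was not called in LR3 (0.17 ± 0.11, adjusted p = 0.303), and was higher in LR3 than in LR2 by 0.81 ± 0.11 (adjusted p = 0.0019). Of 12 glucose and lactate transporters and accessory proteins tested, 1 was higher and 4 lower in LR3, and 1 was higher and 3 lower in LR2. The shares of all genes were 9.56% higher and 12.1% lower in LR3, and 12.8% higher and 9.69% lower in LR2. Both lower counts include SLC2A12, whose LR3 signals of 5.07 and 4.41 lay under the floor. So did its LR2 ceritinib and untreated signals (5.15 and 4.92) and its untreated parental signal (5.1). SLC2A12 passed the filter only through the treated parental arrays (6.83 and 7.44) and the LR2 crizotinib array (5.92), so no size is given. BSG, the chaperone of lactate transporters, fell in LR3 (-0.56 ± 0.09) and in LR2 (-0.36 ± 0.07). PKM, the pyruvate kinase of most tumours, was higher in LR3 than in LR2 by 0.44 ± 0.10 (adjusted p = 0.0151), and against parental cells it was not called in LR3 (0.23, adjusted p = 0.126) or in LR2 (-0.21, adjusted p = 0.0969).

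TXNIP, which restrains glucose uptake, fell in LR2 (-0.93 ± 0.16, adjusted p = 0.0051) and was not called in LR3 (-0.37 ± 0.18, adjusted p = 0.188). The partner subunit ARNT and the HIF inhibitor HIF1AN were not called in either line. Of 15 other HIF pathway components, 0 were higher and 1 lower in LR3, the scaffold LIMD1 (-0.51 ± 0.13), and 1 was higher and 1 lower in LR2, the elongin ELOC (0.39 ± 0.08) and the coactivator antagonist CITED2 (-0.60 ± 0.09). Of 32 other hypoxia-responsive genes, 3 were higher and 7 lower in LR3, and 5 were higher and 7 lower in LR2. Among all genes 9.56% were called higher and 12.1% lower in LR3, and 12.8% higher and 9.69% lower in LR2. Against LR2, LR3 had 1 of these 32 higher and 5 lower, beside 7.29% and 12.3% of all genes. HMOX1, a heme oxygenase, IGFBP3, ZNF395 and HILPDA were among the 5 lower. HMOX1 also fell in LR3 against parental cells (-1.84 ± 0.10). TMEM45A was also called lower in both lines, but its signals of 4.07 and 4.20 in LR3 and 3.91 to 4.25 in LR2 lay under the floor. It passed the filter only through the 2 treated parental arrays, at 5.45 and 5.42, so no size is given. With inhibitor across lines, 4 of these 32 rose and 0 fell, beside 3.02% and 0.256% of all genes. They were PNRC1 (0.78 ± 0.13), FOXO3 (0.55 ± 0.10), the MYC antagonist MXI1 (0.53 ± 0.08) and SAP30 (0.51 ± 0.08). These calls were lost, as were those of all genes, with quantile normalization, with centring and on omission of any parental array or of the LR2 crizotinib or untreated array.

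The genes that lie beside each member were read in RefSeq order (GRCh38.p14), up to 10 tested genes on either side. Some members lay in stretches with many calls in 1 direction. The shares of all genes called were 12.1% lower and 9.56% higher in LR3, and 9.69% lower and 12.8% higher in LR2. Around ERO1A 13 of 20 neighbours were called lower in LR3 (median -0.41) and 12 of 20 in LR2 (median -0.30). Around HIF1A 9 were called lower in LR3 (median -0.26) and 10 in LR2 (median -0.28), and all 20 lay below 0 in LR2. VHL had 7 of 20 lower in LR3 (median -0.22), and LDHA 9 (median -0.20). PFKFB4, itself not called, also had 9 of 20 lower in LR3 (median -0.26). PDK1 had 11 of 20 neighbours higher in LR2 (median 0.37), close to its own 0.40, and NDRG1 had 6 of 20 lower (median -0.20) beside its own -0.75.

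Some other members had neighbours with medians near 0. P4HA1 differed by -0.92 in LR2, and its 20 neighbours had a median of 0.01, with 0 called higher and 2 lower. P4HA2 differed by -0.59, and its 20 had a median of -0.02, with 3 called higher and 1 lower. PFKM differed by 0.64 in LR3, and its 20 had a median of 0.00, with 2 called higher and 1 lower. ALDOC and PFKP had neighbours of their own sign in LR3, but smaller than their own differences of 0.75 and 0.84. Around ALDOC 5 of 20 were called higher (median 0.11, 16 above 0), and around PFKP 5 of 16 (median 0.19, 14 above 0). In LR3 ENO1 had 5 of 20 called higher (median 0.21, 18 above 0) beside its own 0.34, and ALDOA 4 (median 0.12) beside 0.32. TPI1 has ENO2 and GAPDH among its neighbours. The medians around TPI1, ENO2 and GAPDH were 0.23, 0.23 and 0.10, beside their own 0.24, 0.14 and 0.21. Around PGK1 and PGAM1 the medians were -0.02 and 0.02. Around PFKFB3 1 of 20 was called higher in LR3 (median 0.08) and 5 of 20 in LR2 (median 0.15, 16 above 0). DNA copy number was not measured, and its part in these values was not tested.

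**Figure D4:**
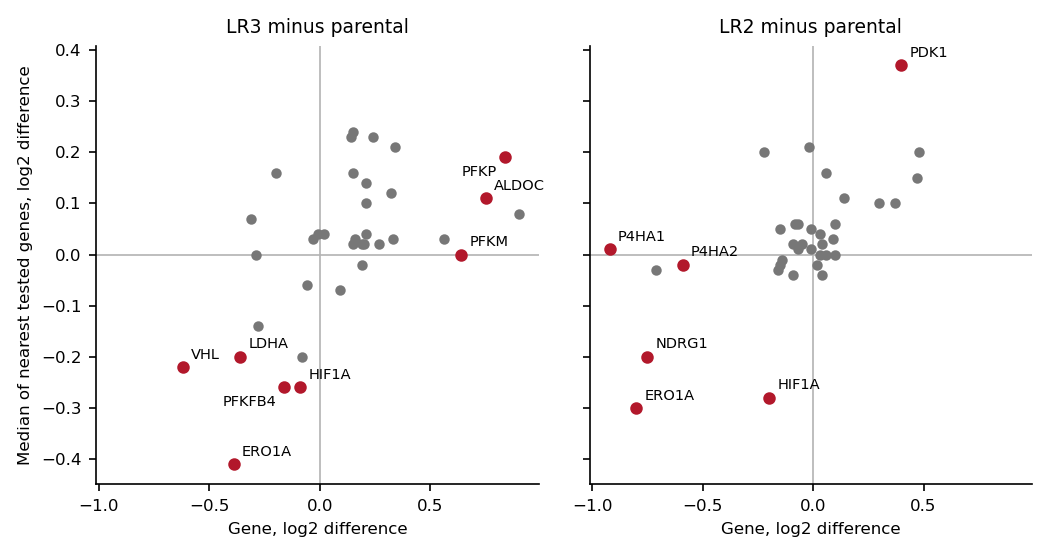
Log2 difference of each gene (horizontal axis) against the median log2 difference of its nearest tested genes in RefSeq order (vertical axis), from parental cells, LR3 in the left panel and LR2 in the right; red labelled points are examples. ERO1A, HIF1A, VHL and LDHA lie among lower neighbours in LR3, whereas P4HA1 and P4HA2 in LR2 and PFKM in LR3 have neighbours with medians within 0.02 of 0.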

How the data were processed

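The authors deposited log2 signals of 49395 probe sets on 8 arrays, made by RMA per the submitters' processing notes; the software version and the arrays normalized together are not given in the sources used here. Per the labels' protocols, RNA was isolated with an RNeasy Mini Kit and labelled with a 3' IVT Express kit. No further normalization was applied. Control probe sets (102) and those with several (1832) or no (2473) gene symbols were left out, which left 44988. Each of 18132 genes took its probe set of highest mean, and 10527 genes above 5.36, the 50th percentile of all values, on at least 2 arrays were tested. Many member probe sets carry the suffixes _a, _s or _x, which mark probes shared among transcripts, for _a those of the same gene. Related genes may contribute to the signals of probe sets with _s or _x. Of the 39 members, 28 had several probe sets, and their directions were compared.

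limma 3.58.1 in R 4.3.3 fitted line and agent as additive terms (3 residual and 5 prior degrees of freedom), and inhibitor responses in 6 cells of line by inhibitor or none (2 residual and 3.44 prior). A model of line plus inhibitor (4 residual degrees of freedom) was added after the data were seen, as were the size of 0.5 and the neighbour reading. Calls needed a p under 0.05 after Benjamini-Hochberg adjustment across the genes tested. The fits were tested on simulated data. The members, gene lists and the rule for named genes were chosen with earlier results of these data known. By that rule called members are named with values, a few regulators are named whether called or not, and up to 4 called genes per other list may be named. Members outside the tested genes are accounted for in the text. Precision is limited by how few arrays there are. Alternatives covered normalization, centring, the filter, the probe set rule, moderation, the agent term and each array in turn.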

Additional observations from a re-analysis of the deposited data

How the results depend on the processing

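Of 31 line calls among the genes, 14 were kept in every alternative that could test them, 17 were lost in at least 1 and 0 reversed. Kept throughout were PFKM, PFKP, ALDOC and VHL in LR3 against parental cells and against LR2, NDRG1 and P4HA2 in LR3 against LR2, and NDRG1, P4HA1, P4HA2 and ERO1A in LR2 against parental cells. Leaving out 1 array gave 5 to 11 calls for LR3 against parental cells (5 without the LR3 ceritinib array, 6 without the LR3 or the parental untreated array, 7 without the parental ceritinib array). The share of all genes called fell too, to 6.14%, 7.89%, 12.2% and 17.2% in these 4 cases, against 21.6% with every array. It gave 5 to 8 for LR2 against parental cells (5 without the LR2 ceritinib or untreated array, with 12.9% and 12.5% of all genes called, against 22.5%), 6 to 13 for LR3 against LR2 (6 without the LR3 and 7 without the LR2 untreated array, with 8.6% and 10.1% of all genes, against 19.6%), 0 to 3 for ceritinib against crizotinib (3 without the parental ceritinib array), 0 to 0 for each response and response difference, and 0 to 8 for inhibitor across lines (8 without the LR2 ceritinib array, 1 without either LR3 array, 0 without any other array). Without any probe set ending in _a_at, _s_at or _x_at, 5 of the genes remained tested. Of these, 0, 1 and 0 were called in LR3 against parental cells, LR2 against parental cells and LR3 against LR2, and 1 across lines. Fewer genes tested bounds these counts. The only probe sets of PFKM, PFKP and P4HA2 end in _a_at. All probe sets of ALDOC, VHL, NDRG1 and P4HA1 end in _a_at, _s_at or _x_at. This setting could therefore test none of these genes and says nothing on their calls. Of the genes with calls kept throughout, it tested ERO1A alone. The 2 calls across lines became 0 with quantile normalization or centring of each array and 1 with no filter or with the mean of all probe sets. The response of EGLN3 in LR2 was -0.45 with both inhibitors, -1.0 with crizotinib alone and 0.10 with ceritinib alone; the cause was not tested. No paired analysis was possible because the labels give no replicate numbers and each condition has 1 array. Genes near the floor of 5.36, such as PDK1, PDK3, PFKFB4, CA12 and ADM, may have compressed differences. EGLN3 was under the floor on the LR2 crizotinib array (5.09).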

Other observations

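Genes of neighbouring branches of carbon metabolism were read from lists chosen with earlier results known. Among all genes 9.56% were called higher and 12.1% lower in LR3, and 12.8% higher and 9.69% lower in LR2, and several counts below lie near or under these shares. In the citrate cycle 4 of 17 tested genes were higher and 2 lower in LR3 than in parental cells, and 1 was higher and 2 lower in LR2. IDH1, the cytosolic isocitrate dehydrogenase, had 10.54 and 10.70 in LR3, 11.35, 11.29 and 11.10 in LR2, and 10.21, 10.20 and 10.05 in parental cells, and it rose in LR3 (0.49 ± 0.11) and in LR2 (1.09 ± 0.09, limma adjusted p = 0.000265). In LR3 the succinate dehydrogenase subunit SDHD fell (-0.64 ± 0.08) while SDHC rose (0.41 ± 0.08). Of 9 pentose phosphate genes tested, 3 were higher and 2 lower in LR3 and 3 were higher and 0 lower in LR2, with PGD, which makes NADPH, higher in both (0.71 ± 0.08 in LR3 and 0.66 ± 0.07 in LR2).

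Of 10 genes of the pyruvate dehydrogenase complex and its regulators, 1 was higher and 3 lower in LR3, and 1 was higher and 0 lower in LR2. PDHB, a subunit of the complex, had 8.90 and 8.73 in LR3, 9.43, 9.40 and 9.35 in LR2, and 9.57, 9.62 and 9.61 in parental cells, and it fell in LR3 (-0.78 ± 0.08, limma adjusted p = 0.000936). The phosphatase PDP1, which activates the complex, rose in LR3 (0.66 ± 0.17) and LR2 (0.86 ± 0.15). Among 14 gluconeogenesis and glycogen genes, 2 were higher and 3 lower in LR3, and 5 were higher and 3 lower in LR2, where the gluconeogenic enzyme FBP1 rose by 0.92 ± 0.07. The lower count in LR3 includes PGM2L1, whose LR3 signals of 5.09 and 4.54 lay under the floor. Its LR2 and parental signals of 5.55 to 7.05 lay above it. Of 6 other glycolytic enzymes and isoforms tested, 0 were called in LR3 and 1 in LR2, BPGM (0.33 ± 0.09).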
